A study of Mus musculus with 2 samples.

Results

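The 10 genes described here encode subunits of the AP-1 transcription factor: Fos, Fosb, Fosl1 and Fosl2, Jun, Junb and Jund, and the related Atf3, Batf and Maff. They were taken by name from the 21938 protein-coding genes of the GENCODE M21 annotation. DNase-seq, in which DNase I cuts accessible DNA in nuclei and the cut ends are sequenced, had been carried out on urinary bladder tissue from female mice aged 4 days. The animals were of strain B6CASTF1/J, the first-generation cross of C57BL/6J with CAST/EiJ, and no treatment, transgene or deletion is named. There was 1 group of 2 biological replicates, which came from females with their own numbers but carried 1 donor identifier, so the spread between them may be partly technical. With a single group the design held no contrast, and every value below is a description with no test.

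AP-1 is a dimer of basic leucine zipper (bZIP) proteins. Jun proteins pair with each other or with Fos proteins, whereas Fos proteins need a partner, and the dimers bind the AP-1 element (TGANTCA) or, with some ATF partners, the cyclic AMP response element (CRE, TGACGTCA). Several subunit genes are immediate early genes, transcribed within minutes of growth factors, stress or stretch without new protein synthesis. At Fos this response runs through serum response factor, which binds a CArG box (CC, then 6 letters that are each A or T, then GG), and through CREB-type proteins at CRE-like sites. In bladder smooth muscle, Fos and Jun are known to be induced by stretch.

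The sequences below show what stands behind the results that follow, CArG boxes and CRE-type sites near several of the genes, some of them under footprints. A footprint is a short stretch inside open chromatin that the authors called as protected from DNase I. The sequences run 5′ to 3′ on the strand of the gene, were read from the RefSeq GRCm38.p6 assembly (mm10), and have motif matches in capitals. They are the C57BL/6J reference, so bases that differ on the CAST/EiJ chromosomes are not shown. The Fos promoter (chr12:85473578-85473877, plus strand) shows a CArG box, a CRE hexamer (TGACGT) and a TATA box. The region downstream of Fos (chr12:85486021-85486240, plus strand) and the Junb promoter at the inner transcription start site (TSS; chr8:84976543-84976760, minus strand) carry a CArG box and a hexamer each. So does the Fosb promoter (chr7:19310281-19310480, minus strand). The inner TSS of Junb belongs to no protein-coding transcript, and its region counts as a promoter because any annotated TSS was used.
Fos promoter: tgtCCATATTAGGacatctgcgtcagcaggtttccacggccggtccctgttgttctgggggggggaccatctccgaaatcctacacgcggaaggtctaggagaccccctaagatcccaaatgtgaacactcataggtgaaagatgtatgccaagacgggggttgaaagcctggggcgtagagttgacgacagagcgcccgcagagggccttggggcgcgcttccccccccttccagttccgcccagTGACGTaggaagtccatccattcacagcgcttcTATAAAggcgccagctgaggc
Fos downstream region: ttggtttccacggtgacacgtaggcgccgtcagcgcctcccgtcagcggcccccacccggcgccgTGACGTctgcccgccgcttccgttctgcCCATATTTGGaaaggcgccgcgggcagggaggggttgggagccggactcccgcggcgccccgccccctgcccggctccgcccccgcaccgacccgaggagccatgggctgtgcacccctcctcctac
Junb promoter: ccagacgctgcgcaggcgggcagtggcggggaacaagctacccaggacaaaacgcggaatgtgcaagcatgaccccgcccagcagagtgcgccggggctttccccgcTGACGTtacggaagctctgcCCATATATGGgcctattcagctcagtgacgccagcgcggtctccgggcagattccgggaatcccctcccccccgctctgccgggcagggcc
Fosb promoter: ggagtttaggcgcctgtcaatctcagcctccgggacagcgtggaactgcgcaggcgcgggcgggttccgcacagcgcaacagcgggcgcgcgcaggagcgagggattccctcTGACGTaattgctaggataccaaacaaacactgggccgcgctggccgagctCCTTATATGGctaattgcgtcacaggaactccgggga

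A second set holds the CRE and AP-1 type sites. The Jun promoter (chr4:95052223-95052422, minus strand) has a relative of the CRE (TGACATCA, called the variant element here). The Maff promoter (chr15:79347381-79347519, plus strand) has a full CRE. The region upstream of Fosb (chr7:19327298-19327404, minus strand) and the one upstream of Atf3 (chr1:191224393-191224499, minus strand) have an AP-1 element and a hexamer each.
Jun promoter: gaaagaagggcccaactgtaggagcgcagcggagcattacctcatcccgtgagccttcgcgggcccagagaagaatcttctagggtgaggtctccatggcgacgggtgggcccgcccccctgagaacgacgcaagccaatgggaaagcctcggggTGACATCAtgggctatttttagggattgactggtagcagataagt
Maff promoter: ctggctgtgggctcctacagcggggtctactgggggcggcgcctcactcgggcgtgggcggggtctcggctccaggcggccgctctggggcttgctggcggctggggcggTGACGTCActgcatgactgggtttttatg
Fosb upstream region: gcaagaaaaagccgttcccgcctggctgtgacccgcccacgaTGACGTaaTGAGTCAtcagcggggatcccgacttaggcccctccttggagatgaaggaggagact
Region upstream of Atf3: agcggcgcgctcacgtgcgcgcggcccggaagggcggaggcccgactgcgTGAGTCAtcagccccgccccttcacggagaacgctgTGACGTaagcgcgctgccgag

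Openness was read from the height of each peak in the longer of the lists that the authors deposited for each sample, 96518 peaks in replicate 1 and 122870 in replicate 2. The sources used here do not state the scale of the height. All heights were whole multiples of a step of 0.00466 in replicate 1 and 0.00417 in replicate 2 (tolerance 0.02 steps), and the number of steps gave an exact Poisson 95% interval, which covers counting error only and takes a step as 1 counted event. Total depth is unknown. Heights ran lower in replicate 2: the median log2 ratio of replicate 2 over replicate 1 was -0.28 over the 53490 regions called in both (SD 0.40 over regions) and -0.41 over promoters. As a check of the tissue, a promoter peak was called in each replicate at 7 of 7 smooth muscle markers and 4 of 4 fibroblast markers. It was called at 3 of 7 urothelial markers (Upk1a had none in either), 2 of 3 endothelial markers and 0 of 4 leukocyte markers. The share of all protein-coding genes was 62.3%. Median heights were 1.17 for smooth muscle, 1.99 for fibroblast, 0.724 for urothelial and 0.660 for endothelial markers. All lay below the median of all promoters called in both, 2.23. In bulk tissue, fewer open cells of a type and less opening per cell cannot be told apart.

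A promoter peak, meaning one within 500 bp of a TSS of the gene, was called in both replicates at 9 of the 10 subunit genes, against 62.3% of all protein-coding genes. In replicate 1 the count was 9 of 10 against 65.4%, and in replicate 2 it was 10 of 10 against 64.7%. Batf was the gene without a peak in replicate 1. Of the 9 genes with both peaks, 7 had a mean height above the median of all promoters called in both (2.23, quartiles 1.17 and 3.55), and 3 lay above the upper quartile. Jund stood highest and Fosl1 lowest, and all 9 were taller in replicate 1, as were promoters generally.

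**Figure D1:**
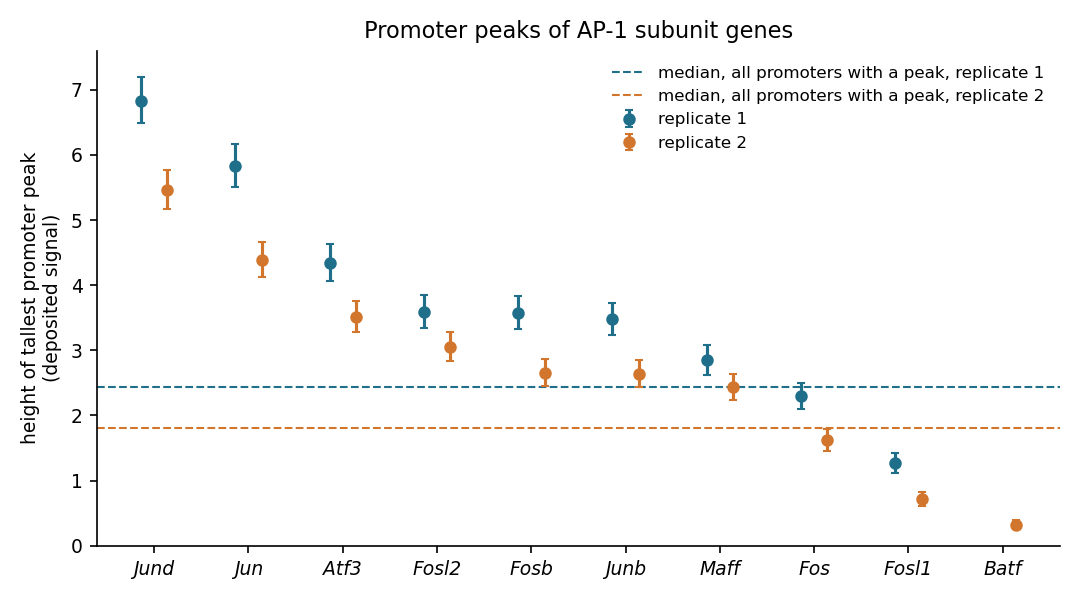
Height of the tallest promoter peak (vertical axis, deposited signal) of each AP-1 subunit gene in replicate 1 and replicate 2, with exact Poisson 95% intervals as bars and the medians over all promoters with a peak as dashed lines (2.44 and 1.80). Jund and Jun lie far above the medians in both replicates, Fos and Fosl1 lie below them, and Batf has a point in replicate 2 alone.

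Among the Fos family, Fosl2 and Fosb had the taller promoters. Fosl2 (ENSMUSG00000029135.10, chr5:32135801-32157842), which encodes Fra-2, reached 3.59 in replicate 1 and 3.05 in replicate 2, a mean of 3.32 ± 0.377 (SD, n = 2), at the 71.3rd percentile of the 13670 promoters called in both. Fosb (ENSMUSG00000003545.3, chr7:19302696-19310051), whose splice form lacking the C-terminal part is known as ΔFosB, reached 3.57 and 2.66 (3.11 ± 0.647). These genes kept the same order in both replicates, but their Poisson intervals overlapped.

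Fos (ENSMUSG00000021250.13, chr12:85473890-85477273), the founding member of the family, had a promoter of only middling height. It measured 2.29 in replicate 1 (Poisson interval 2.09 to 2.50) and 1.62 in replicate 2 (1.46 to 1.79), at the 43.8th percentile by the mean of 1.95 ± 0.476. In both replicates this lay below the median promoter. Fosl1 (ENSMUSG00000024912.6, chr19:5447547-5455946), which encodes Fra-1, was lower again at 1.27 and 0.713 (0.990 ± 0.391, 20.0th percentile). Its log2 ratio between replicates was -0.83, the farthest of the 9 from the promoter median of -0.41. Fos stood above Fosl1 in both replicates with intervals that did not overlap.

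Jund and Jun held the tallest promoters of the 10 genes. Jund (ENSMUSG00000071076.6, chr8:70698949-70700616), the Jun gene known for steady expression, reached 6.83 (6.49 to 7.19) and 5.46 (5.17 to 5.77), a mean of 6.15 ± 0.968 at the 97.3th percentile. Jun (ENSMUSG00000052684.4, chr4:95049034-95052222) reached 5.83 and 4.39 (5.11 ± 1.02, 92.5th percentile). A TSS of the antisense transcript Junos lies in the same window, so the peak at Jun cannot be given to 1 of them. Jund exceeded Jun, and Jun exceeded the next gene, in both replicates with intervals that did not overlap.

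Junb (ENSMUSG00000052837.6, chr8:84974484-84978718), often described as an antagonist of Jun in cell growth, sat lower and had 2 promoter peaks of like height. The one at the inner TSS measured 3.47 and 2.64 (3.06 ± 0.587, 66.6th percentile), and the one at the outer TSS measured 3.07 and 2.54. The inner TSS belongs to no protein-coding transcript. With TSSs of protein-coding transcripts only, the mean height of Junb was 2.81, from the peak at the outer TSS. Which TSS is used in the bladder cannot be read from these heights.

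Of the other partners, Atf3 (ENSMUSG00000026628.13, chr1:191170296-191218039), a stress-response gene, had the tallest promoter at 4.34 and 3.51 (3.93 ± 0.590, 80.4th percentile). That peak lay at the inner TSSs, and the outermost annotated TSS had no peak called in both replicates. Maff (ENSMUSG00000042622.14, chr15:79346621-79359076), a small Maf protein without a transactivation domain, measured 2.85 and 2.43 (2.64 ± 0.293, 58.4th percentile). Batf (ENSMUSG00000034266.6, chr12:85686669-85709087), a subunit best known from lymphocytes, had 6 low promoter peaks in replicate 2 and none in replicate 1, the tallest at 0.317 (76 steps, interval 0.250 to 0.397). None of the 4 leukocyte markers had a promoter peak in either replicate, but 3 had regions called in both replicates farther from a TSS. Whether this bears on Batf was not tested.

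From top to bottom the order was Jund, Jun, Atf3, Fosl2, Fosb, Junb, Maff, Fos and Fosl1, and each gene exceeded the next in both replicates. With a window of 1000 bp Fosb reached a mean of 3.80 through the peak in its own exon and passed Fosl2 at 3.32. The Poisson intervals separated 4 of the 8 neighbouring pairs, namely Jund from Jun, Jun from Atf3, Maff from Fos and Fos from Fosl1. The run from Atf3 to Maff could not be parted step by step.

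The deposited false discovery rates per stretch of bases were listed over nearly all of the windows of Jund and Jun. Among the other genes the listed share did not follow the heights. Fosb (39.8% and 31.2%) and Maff (36.4% and 29.0%) had smaller listed shares than Fos (65.6% and 57.0%), whose promoter was lower. The windows take in every annotated TSS of a gene, so their length differed, from 1001 bases at Jund and Jun to 2782 at Maff. Jund had a listed rate, at most 0.05, at all 1001 bases of its window in replicate 1 and at 950 in replicate 2, and the lowest rate was listed as 0 in both. Jun was close, with all 1001 bases listed in replicate 1 and 912 in replicate 2, and lowest rates of 1.35e-42 and 2.42e-42. Atf3 also had a lowest rate listed as 0, in replicate 1 alone. At Batf no base of 2002 was listed in replicate 1, whereas 1203 (60.1%) were listed in replicate 2 with a lowest rate of 1.39e-08. Fosl1 had 456 and 468 of 1375 bases listed, with lowest rates of 7.63e-07 and 8.14e-05. In replicate 2 Batf thus had a larger listed share and a lower rate than Fosl1, although its peak was lower.

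After peaks that overlapped had been merged into regions, 59 regions with a peak from each replicate belonged to the subunit genes: 19 at promoters, 25 distal, and 15 near a TSS of another gene or within 1000 bp of a TSS. A distal region had its centre over 1000 bp from any TSS and the subunit gene as the nearest protein-coding gene within 100 kb. Distal regions were found for 8 of the 10 genes, against 43.7% of all protein-coding genes, with a median of 2 per gene against 0. Fos had 8, a number reached by 2.35% of genes, and Fosb had 5, reached by 5.57%. Junb had 3, Jun, Jund, Atf3 and Maff had 2 each, Batf had 1, and Fosl1 and Fosl2 had none. Of the 25 distal regions, 24 were taller in replicate 1.

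At Fos, distal regions and not the promoter were the tallest of the regions assigned to it. The tallest lay 18.6 kb upstream (chr12:85455161-85455540, between genes), at 4.93 in replicate 1 and 4.27 in replicate 2 (4.60 ± 0.462), the 99.7th percentile of shared distal regions. Next came the region 12.3 kb downstream of the first TSS (chr12:85486021-85486240, between genes), at 4.96 and 3.46 (4.21 ± 1.06, 99.5th percentile). In both replicates each of these exceeded the promoter values of 2.29 and 1.62. The third, 1.62 kb upstream, was close to the promoter in height at 1.63 and 1.42. The other 5 had mean heights from 0.739 to 1.02.

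Fosb showed the same arrangement. Its tallest distal region lay 10.1 kb upstream in an exon of the noncoding gene D830036C21Rik (chr7:19320041-19320260), at 4.73 and 3.94 (4.34 ± 0.556, 99.6th percentile), above the promoter values of 3.57 and 2.66. A further region in an exon of Fosb itself, 0.89 kb from the nearest TSS of the gene (chr7:19308581-19308840), reached 4.58 and 3.03. Lower regions lay 16.5 kb upstream (2.57 and 1.64) and 17.3 kb upstream (1.80 and 1.76). A distal region taller than the promoter in both replicates was thus present at 2 of the 7 subunit genes with both kinds of peak, close to the 24.1% of all such genes.

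**Figure D2:**
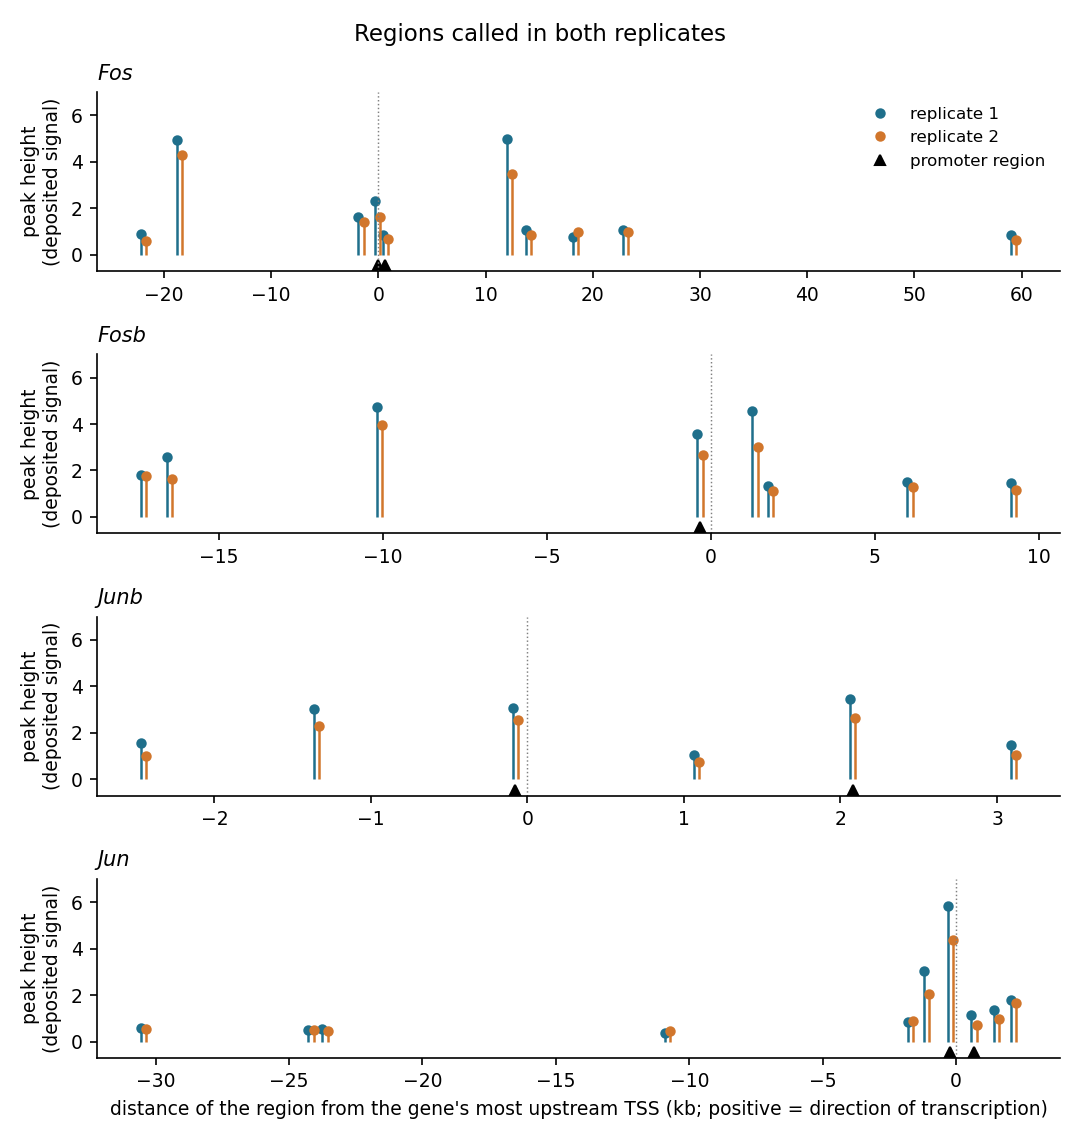
Heights (vertical axis, deposited signal) of the regions called in both replicates around Fos, Fosb, Junb and Jun against the distance from each gene's most upstream TSS in kb, with replicate 1 and replicate 2 drawn slightly side by side and triangles marking promoter regions. The regions 18.6 kb upstream and 12.3 kb downstream of Fos and the region 10.1 kb upstream of Fosb stand above their promoters, and at Jun the promoter is the tallest.

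The 12 distal regions of the other subunit genes were lower, with heights from 0.587 to 3.03 in replicate 1 (median 1.12) and from 0.559 to 2.31 in replicate 2 (median 0.896). Junb had the tallest of them, 1.35 kb upstream (chr8:84979941-84980180), at 3.03 and 2.31, followed by one 2.45 kb upstream at 1.56 and 1.00 and one in an exon of Junb at 1.04 and 0.746. Jun, whose coding sequence lies in a single exon, had a distal region within that exon (chr4:95049981-95050180) at 1.78 and 1.68. Its other one, 30.5 kb upstream in an intron of Junos, measured 0.587 and 0.559. Batf, with next to no opening at its promoter, had a region in its own intron 19.0 kb downstream of the first TSS (chr12:85705521-85705800) at 1.88 and 1.61, the 90.9th percentile.

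At Jund the distal regions 2.28 kb and 3.41 kb upstream were low, at 1.19 and 1.04 for the first and 0.726 and 0.671 for the other. Those of Maff lay in an exon 11.1 kb downstream of the first TSS (1.28 and 0.996) and in an intron 4.91 kb downstream (1.06 and 0.796). Atf3 had intronic ones at 1.01 and 0.605 and at 0.712 and 0.675. A much taller region 6.39 kb upstream of Atf3 (chr1:191224321-191224540), at 3.69 and 2.39, sits at the TSS of the noncoding gene D730003I15Rik and was therefore not counted as distal. Assignment to the nearest gene does not show which gene a region acts on, and Fos and Batf are neighbours on chromosome 12, with starts 213 kb apart and Jdp2, which encodes another bZIP protein, between them.

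Footprints were called in the tallest promoter peak of each subunit gene, as in 97.4% of such peaks of all genes in replicate 1 and 96.0% in replicate 2. Over all 19 promoter regions of the subunit genes, 15 held a footprint in replicate 1 and 19 in replicate 2. The matching share of all shared promoter regions was not computed, and the shares above, for tallest peaks, are no background for it. The counts that follow are for the tallest peaks. Replicate 1 had 57 in 9 peaks, with a median of 6 per peak and 1.91 per 100 bp, against a median of 4 and 1.66 per 100 bp over all promoter peaks. Replicate 2 had 48 in 10 peaks, with a median of 4 and 1.94 per 100 bp, against 3 and 1.50. In each replicate 7 of the 10 subunit genes had a promoter above the median height. Peaks of like height were not compared, so these gaps cannot be told apart from a difference in height. Fosl2 had the most in replicate 1 with 11 and Jun the most in replicate 2 with 8. Of these footprints, 64.9% in replicate 1 and 72.9% in replicate 2 overlapped a footprint of the other replicate, against 56.5% and 74.9% over all promoters. In the 25 distal regions the density was 1.26 and 1.15 per 100 bp, against 1.06 and 1.01 over all shared distal regions.

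CArG boxes were searched on both strands over whole regions, and 5 of the 59 regions held one, against 1.16% of the 53490 regions called in both replicates. Longer regions offer more room for a match, and regions of 1 gene are not independent of each other. The median width was 240 bp for the 59 regions and 220 bp for all. In 2 of the 5 a footprint covered the whole box in both replicates. Among all regions called in both, this was the case in 12 of the 620 that held a box (0.0224% of all). At Junb the covered box was CCATATATGG, with its first base at -91 from the inner TSS. In the region downstream of Fos it was CCATATTTGG. The promoter region at the outer TSS of Junb, the one of protein-coding transcripts, held no CArG box.

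The CArG box of the Fos promoter itself, CCATATTAGG at -309, matches the textbook serum response element and had no footprint in either replicate. It lay inside the tallest promoter peak of replicate 1, and in replicate 2 inside a lower promoter peak beside the tallest. The box at the Fosb promoter, CCTTATATGG at -266, was touched but not covered by a footprint in replicate 1 and free of one in replicate 2. The fifth, at -1450 from the outer TSS of Junb, had none. In the central 150 bp alone, 1 of 19 promoter regions (against 0.543% of all promoter regions) and 1 of 25 distal regions (against 0.766%) held a box.

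Full CRE-type sites at another pair of promoters were covered by footprints in both replicates. The CRE of the Maff promoter, TGACGTCA at -29, was covered. Such cover was common where a CRE was present, in 364 of the 740 shared regions that held one (0.681% of all). At the Jun promoter the site was the variant TGACATCA at -45, which is the textbook site of Jun and ATF2 dimers. That site lay inside the tallest promoter peak of replicate 1 but outside the tallest of replicate 2. The variant was covered in 24 of the 748 shared regions that held it (0.0449% of all). The same letters at -45 from another TSS of Maff were touched in replicate 2 alone, and a copy upstream of Fos had no footprint.

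The CRE hexamer TGACGT, added to the search after the sequences of the regions had been read, was found in the central 150 bp of 15 of the 59 regions, against 3.83% of all shared regions. Among promoter regions it was 7 of 19 against 6.91%, and among distal regions 5 of 25 against 2.14%. Its letters lie within the full CRE of Maff, which is counted in both. A footprint covered the hexamer in both replicates in 5 of these 15 regions. Over all shared regions such cover was seen in 586 of the 2051 with a central hexamer (1.1% of all), a similar share of those with a match. The 5 were at -66 in the Fos promoter, at -317 in the Fosb promoter, in the exonic region of Fosb, in the region upstream of Atf3 and in the Maff CRE. Since the motif was picked from these sequences, the counts describe the regions and support nothing further.

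**Figure D3:**
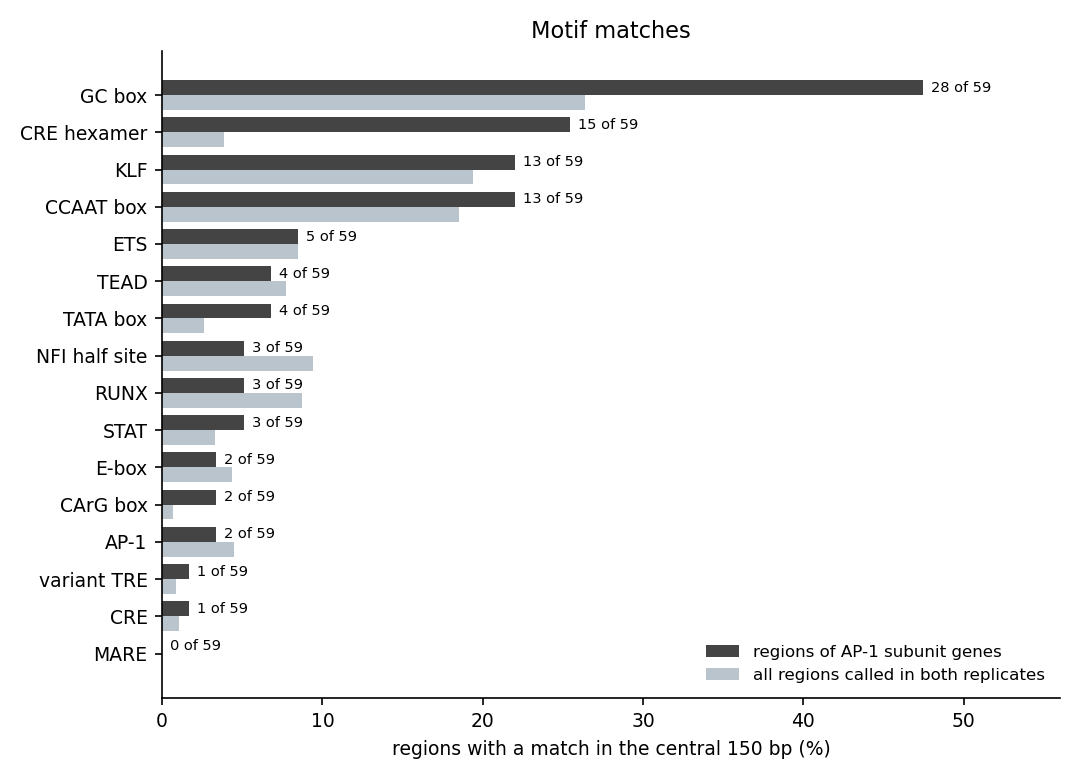
Share of regions with a match in their central 150 bp (horizontal axis, %) for 16 motifs searched on both strands, for the 59 regions of the AP-1 subunit genes (dark bars, counts beside them) and for all 53490 regions called in both replicates (light bars). GC boxes (28 of 59) and CRE hexamers (15 of 59) have the widest gaps between the bars, and the AP-1 element (2 of 59) is shorter in the dark bar.

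The other motifs in the plot of shares were the CCAAT box (CCAAT), ETS (CCGGAA), E-box (CACGTG), STAT (TTC and GAA parted by 3 letters), TEAD (GGAATG), RUNX (TGTGGT), KLF (CCACCC), an NFI-type site (TTGGCA) and the Maf recognition element (MARE). For ETS, TEAD, KLF and CCAAT the share among the 59 regions lay close to that of all shared regions, and no MARE was found in these windows. For KLF the classes departed in opposite directions. It was in 1 of 19 promoter regions, against 22.9% of all promoter regions, and in 9 of 25 distal regions, against 17.2% of all distal regions.

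The AP-1 element, through which the subunits could act on their own genes, was found anywhere in 6 of the 59 regions, against 7% of all shared regions. None of the 6 was covered by a footprint in both replicates. Such cover was seen in 36 of the 3744 shared regions that held the element (0.0673% of all). In the central 150 bp it was absent from all 19 promoter regions (2.22% of all promoter regions held it) and was present in 1 of 25 distal regions (6.13% of all). The 2 regions with a central match were those upstream of Fosb (17.3 kb) and of Atf3 (6.39 kb), and a footprint touched each match in replicate 1 alone. The promoter count depended on the window: it was 2 of 19 in the central 300 bp (4.08% of all promoter regions) and 4 of 19 over whole regions (4.27% of all). Those 4 were at -462 in Fos, at -24 in Fosl1, at 53 in Fosl2 and at 317 in Atf3, each from its nearest TSS, and the one at Fosl2 was touched by a footprint in replicate 2 while the others had none. The median width was 252 bp for these promoter regions and 260 bp for all.

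GC boxes (GGGCGG), bound by Sp-type factors, were in the central 150 bp of 10 of 19 promoter regions, a share like the 52% of all promoter regions. In the distal regions they were found in 12 of 25, against 11.3% of all distal regions. TATA boxes (TATAAA) were in the centre of 4 of the 59 regions, against 2.59% of all shared regions. In 3 of the 4 a footprint covered the box in both replicates. Over all shared regions such cover was seen in 62 of the 1388 with a central TATA box (0.116% of all). The 3 covered boxes lay at -33 in the Fos promoter, at -30 from the outer TSS of Junb and in a region past the end of Fosb that lies 54 bp from the TSS of Gm26802.

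Regions called in 1 replicate alone were unevenly spread: 88 in replicate 1 and 23 in replicate 2. The numbers called alone over all genes were not computed, so these counts have no background. The whole list was shorter in replicate 1 (96518 peaks) than in replicate 2 (122870). Most of them came from Jun and Atf3. In replicate 1, 47 of the 50 found alone near Jun and 23 of the 26 near Atf3 were below the low point of the distribution of heights (0.408), as were 41.7% of all peaks of that replicate. That share includes peaks called in both replicates, and the share among all peaks found alone was not computed. The 47 at Jun spread over 47.0 kb with heights from 0.0559 to 0.335 (12 to 72 steps), and 18 of them held a footprint. Replicate 2 had 7 peaks in that span. It also had 4 low peaks of its own near Jun, at 0.0792 to 0.363. The 23 at Atf3 lay over 15.9 kb around its outermost TSS at 0.0466 to 0.284, and no peak of replicate 2 was called in that span.

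Batf showed the opposite. Its 12 low peaks in replicate 2 lay over 5.96 kb around the start of the gene at 0.150 to 0.317, below the low point of 0.428. So did 59% of all peaks of that replicate, including those called in both. Replicate 1 had no peak in the span. The 6 promoter peaks of Batf are among these 12. Whether these patches differ between the animals or between the libraries was not tested. Among the other genes, Fos had 5 regions in replicate 1 alone (0.466 to 0.671), and Fosl1, Jund and Maff had none in either.

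**Figure D4:**
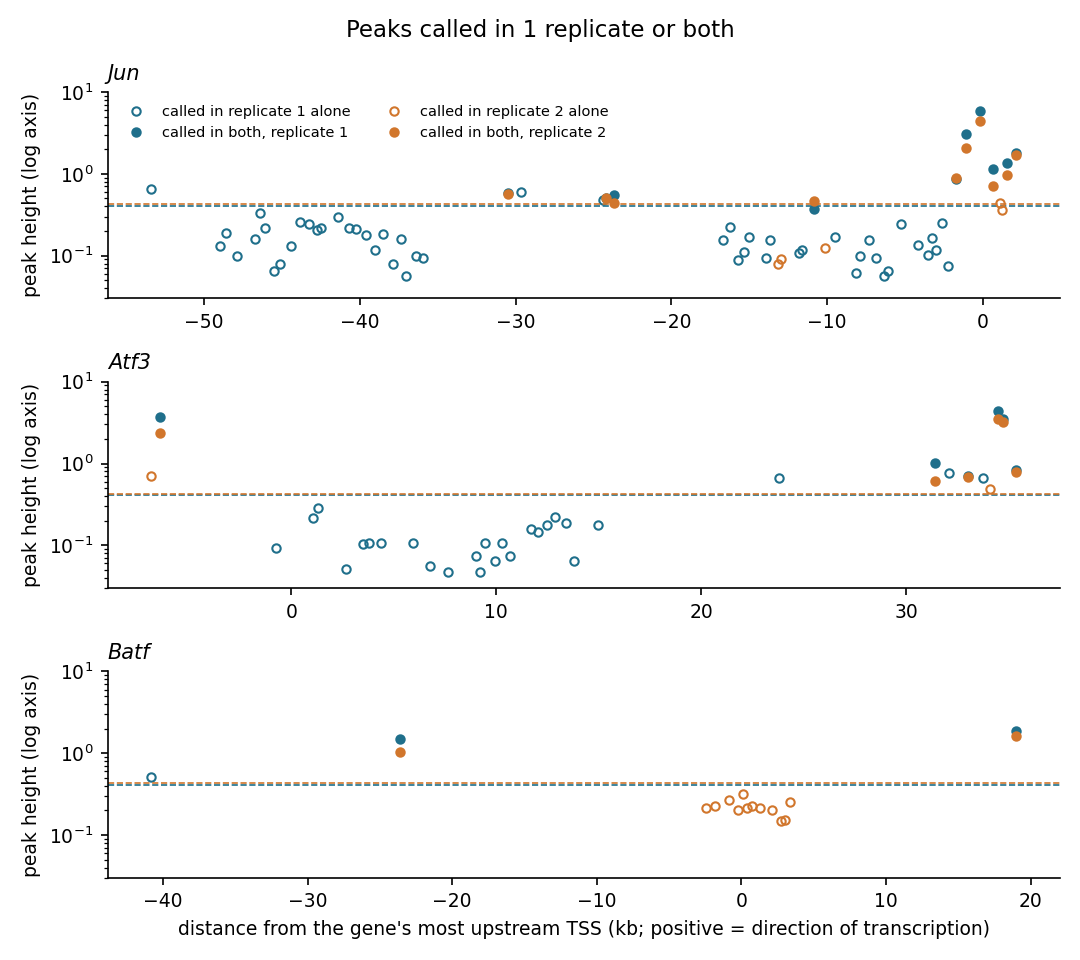
Heights of peaks (vertical log axis, deposited signal) around Jun, Atf3 and Batf against the distance from the most upstream TSS in kb, filled where a region was called in both replicates and open where it was called in 1, with the low points of the distributions of height (0.408 and 0.428) dashed. Patches of open circles below the dashed lines belong to replicate 1 at Jun and Atf3 and to replicate 2 at Batf, beside 4 such circles of replicate 2 at Jun.

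Across the wider AP-1 network, 71 of 76 genes outside the subunits had peaks at the promoter in each replicate (93.4%, where the share of all genes was 62.3%). All 22 other bZIP partners had one, with a median height of 3.41, and the tallest were Atf7 at 8.20 and 6.52 and Atf5 at 6.51 and 5.05. The 17 kinases and phosphatases upstream of AP-1 also all had one (median 4.02), led by the MAP kinase kinases Map2k1 at 9.47 and 7.38 and Map2k7, which activates the JNK kinases of Jun, at 7.37 and 6.13. The median of the subunit genes was 3.11.

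The 9 regulators of Fos and Jun transcription all had a peak (median 3.19), with Stat3 at 7.27 and 5.91 and Mkl1 (Mrtfa in the annotation), a coactivator of serum response factor, at 6.61 and 6.22. So did the 14 other early response genes (median 3.37), with Klf6 at 5.69 and 4.92 and Egr1 at 5.07 and 4.02. Of the textbook AP-1 targets 9 of 14 (64.3%) had one, close to the 62.3% of all genes, with a median of 1.71. Hmox1 reached 3.11 and 2.83 and Vegfa 3.17 and 2.74, whereas Mmp3, Mmp9, Mmp13 and Spp1, which encode matrix proteases and osteopontin, had no promoter peak in either replicate. Plaur, the urokinase receptor, had one in replicate 1 alone, at 0.726.

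**Figure D5:**
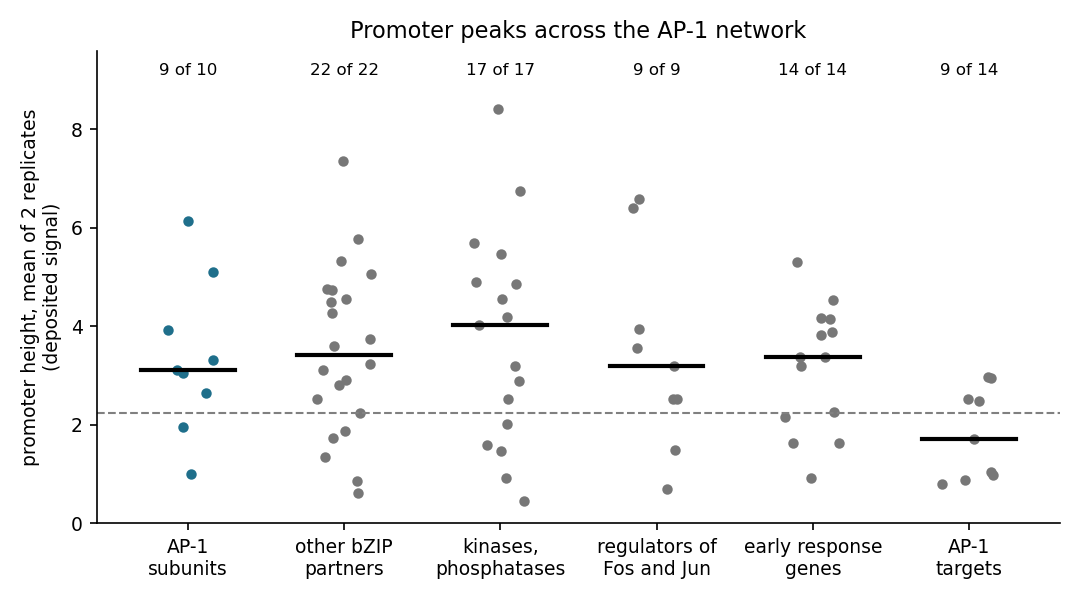
Promoter height (vertical axis, deposited signal, mean of 2 replicates) of each gene with a peak in both replicates, for the AP-1 subunits and 5 lists of the AP-1 network, with bars at the medians, counts of genes with both peaks above, and the median of all promoters (2.23) dashed. The median of the subunits, 3.11, lies above the dashed line, and that of the AP-1 targets, 1.71, lies below it.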

How the data were processed

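DNase-seq peaks, footprints and false discovery rates were deposited for each of 2 samples of 1 group, on assembly mm10, per the labels and the deposited descriptions. The peak height is the signal that the authors deposited, on a scale that no label or header states. The p-value (q-value) in the deposited rate lists is a false discovery rate per stretch of bases, listed up to 0.05, and the deposited footprint column holds 0.01 throughout. Aligner, callers and thresholds: not given in the sources used here.

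Members, lists and tests were chosen with earlier results of these data known. Named were all members, the 3 tallest distal regions of each, and per network list the 2 tallest promoters and those with a peak in neither replicate; regions and marker genes named beyond this were chosen after their values were seen. Peaks overlapping by at least 1 bp were merged, and the tallest peak gave the height. The centre of a region was the mean of its tallest peaks' centres. The low point of the heights lies between the modes of their distribution. For 16 motifs, matches were consensus strings found on both strands in the reference, and a footprint covered a match when it held all its bases. Python 3.11.15, numpy 2.4.6, pandas 2.3.3, scipy 1.17.1, pysam 0.24.0 and matplotlib 3.10.9 were used, and the assignment of peaks was tested on simulated data. Alternatives were stricter lists, other windows and reaches, other overlaps, another scaling and leaving out each replicate.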

Additional observations from a re-analysis of the deposited data

How the results depend on the processing

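The count of subunit genes with promoter peaks in each replicate was 9 in the stricter lists, with windows of 250 or 1000 bp and with TSSs of protein-coding transcripts only. The window of 1000 bp raised Fosb to 3.80, above Fosl2. TSSs of protein-coding transcripts only lowered Junb from 3.06 to 2.81. Dividing heights by the median of shared regions moved the median promoter height from 3.11 to 3.90 by changing its unit. The 25 distal regions became 18 in the stricter lists, 17 when the nearest gene of any biotype was used, and 33 when distal meant beyond 500 bp. In the stricter lists Fos fell from 8 to 5, while Fosb stayed at 5. With the nearest gene of any biotype Fos fell to 6 and Fosb to 2, and Jun and Batf fell to 0. Leaving out each replicate in turn gave 32 to 100 distal regions, the higher number from replicate 1 alone, where the low peaks at Jun and Atf3 enter. Regions with an AP-1 element rose from 2 to 4 in the central 300 bp and 6 over whole regions, and were 3 to 7 with 1 replicate left out. Those with a CArG box rose from 2 to 4 and 5 in the same windows. CREs went from 1 to 2 in the central 300 bp, and were 1 to 2 with 1 replicate left out. CRE hexamers, added after seeing the data, stayed within 15 to 18. No paired analysis was possible because the samples form 1 group. Depth limits the low peaks most, since a height of 12 steps carries wide counting error.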

Other observations

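Over all regions called in both replicates, 12 had a CArG box covered by a footprint in both. Beside the region at the inner TSS of Junb and the region downstream of Fos they include the promoter of Zfp36, an early response gene. Zfp36 encodes an RNA-destabilising protein, and its promoter stood at 4.68 in replicate 1 and 3.64 in replicate 2. Promoters of Bcl2l12 (4.54 and 3.81), Hdgfl2 (7.14 and 4.83), Ppm1b (7.10 and 5.44) and Spindoc (7.52 and 4.86) were also among them, and the others lay nearest to Ksr2, Agk, Dgke, Nnt and Tkt. These genes were named after their values were seen.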
